A study of Mus musculus with 112 samples.

Results

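Proliferation genes were followed in epididymal white adipose tissue (WAT) of mice on a control diet or on caloric restriction (CR). The labels give the tissue as white adipose. The set holds 10 genes that dividing cells switch on, Mki67, Top2a, Ccnb1, Ccnb2, Ccna2, Cdk1, Bub1, Aurka, Birc5 and Plk1. A gene was measured by the brightest probe set that carries its symbol and no other. This rule gave 9 of the 10 genes, of 19938 genes in all, and Ccnb1 was not analysed here. Each of the 112 arrays held the RNA of a single male mouse, and every one of 7 strains gave 8 mice per diet. All but one of the strains were inbred, 129S1/SvImJ, BALB/cJ (Balbc/J in the labels), C3H/HeJ, C57BL/6J (C57BL6/J in the labels), CBA/J and DBA/2J, and the other, B6C3F1/J, was a hybrid of C57BL/6 and C3H. All mice were bought at 6 weeks of age, housed singly and first fed an AIN93M-type diet. From 8 to 22 weeks of age they stayed on this diet or received the restricted one, and per the study's methods all were fasted overnight before death. The methods also state that restriction was deepened partway for 129S1/SvImJ and C57BL/6J, and that both diets were set higher for BALB/cJ, whose CR mice did not weigh significantly less than their controls. B6C3F1/J, CBA/J, C3H/HeJ and DBA/2J kept a common pair of allotments throughout, and 129S1/SvImJ and C57BL/6J shared another schedule. Between strains on different schedules, strain and feeding cannot be told apart.

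These genes serve consecutive steps of cell division. Cyclin A2 (Ccna2) and the B cyclins switch on the kinase Cdk1, which drives entry into mitosis. Topoisomerase II alpha (Top2a) untangles replicated DNA, the kinases Plk1, Aurka and Bub1 build the spindle and check its attachments, and Birc5 is a subunit of the chromosomal passenger complex. Mki67 encodes the Ki-67 protein that coats mitotic chromosomes. Mature adipocytes do not divide, and in the fat of obese mice macrophages are known to divide locally, while progenitors and other immune cells can divide as well. In whole tissue, fewer dividing cells and less RNA per dividing cell cannot be told apart.

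The promoters of such genes often carry a pair of short elements, the CCAAT box and the cell cycle homology region. In resting cells the genes are held down through the latter. RefSeq windows from 250 bases before to 50 bases after the start (GRCm38.p6) were at hand for 9 of the 10 genes, all but Ccna2 and with Ccnb1 among them. The bases before the start are shown for 6 genes, chosen as those whose CR effects are described most closely below, with Birc5 as the one without a CCAAT box. Bases that lie inside the annotated gene because of a more distant start were left out for Mki67 and Top2a. Capitals mark CCAAT on either strand (ATTGG when read from the other strand) and TTTGAA or TTTAAA on either strand (TTCAAA is the former read from the other strand).
Mki67, chr7:135716451-135716629, minus strand: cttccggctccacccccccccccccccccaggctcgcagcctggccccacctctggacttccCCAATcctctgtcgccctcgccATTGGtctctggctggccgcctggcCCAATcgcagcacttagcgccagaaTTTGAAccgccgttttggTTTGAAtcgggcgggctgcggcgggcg
Top2a, chr11:99024200-99024439, minus strand: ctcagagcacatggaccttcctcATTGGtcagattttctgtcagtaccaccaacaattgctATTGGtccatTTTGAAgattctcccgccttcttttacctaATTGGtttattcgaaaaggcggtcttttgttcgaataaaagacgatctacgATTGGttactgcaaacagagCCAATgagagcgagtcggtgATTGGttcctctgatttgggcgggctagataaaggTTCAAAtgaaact
Ccnb2, chr9:70421555-70421804, minus strand: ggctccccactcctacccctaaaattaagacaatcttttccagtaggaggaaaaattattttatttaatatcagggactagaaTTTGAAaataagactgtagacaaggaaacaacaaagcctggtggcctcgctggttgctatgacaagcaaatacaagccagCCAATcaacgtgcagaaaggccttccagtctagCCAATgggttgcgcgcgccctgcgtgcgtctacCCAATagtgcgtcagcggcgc
Cdk1, chr10:69352913-69353162, minus strand: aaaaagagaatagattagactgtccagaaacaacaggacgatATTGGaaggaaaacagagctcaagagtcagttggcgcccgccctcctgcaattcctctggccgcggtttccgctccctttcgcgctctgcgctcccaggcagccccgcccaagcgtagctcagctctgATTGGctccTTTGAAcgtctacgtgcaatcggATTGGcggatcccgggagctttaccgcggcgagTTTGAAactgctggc
Plk1, chr7:122159185-122159434, plus strand: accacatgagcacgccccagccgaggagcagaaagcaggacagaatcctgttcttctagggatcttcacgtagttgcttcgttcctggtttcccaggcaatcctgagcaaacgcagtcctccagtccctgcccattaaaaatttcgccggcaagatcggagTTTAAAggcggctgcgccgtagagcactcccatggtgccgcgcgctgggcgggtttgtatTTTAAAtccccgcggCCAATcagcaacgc
Birc5, chr11:117848987-117849236, plus strand: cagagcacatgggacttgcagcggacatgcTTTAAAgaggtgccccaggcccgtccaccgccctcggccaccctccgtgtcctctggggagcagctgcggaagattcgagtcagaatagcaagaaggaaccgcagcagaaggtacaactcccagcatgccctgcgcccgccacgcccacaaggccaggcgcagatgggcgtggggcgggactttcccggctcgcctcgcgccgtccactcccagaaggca

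CCAAT was found in 8 of the 9 promoter windows of 300 bases, and in 37.4% of the 32851 windows of all genes. TTTGAA or TTTAAA was found in 8 of the 9 windows (all but Bub1) against 27.6% of all windows. Both elements were in 7 of 9 against 10.7%. Top2a carried 6 CCAAT boxes, Mki67, Ccnb2 and Cdk1 carried 3 each, and Birc5 carried none and had a single TTTAAA that begins at -220. In Aurka both CCAAT boxes lay before the start, at -51 and -19, and its TTTAAA and TTTGAA lay after it, at 18 and 33, counting the first transcribed base as 1. Ccnb2 and Plk1 also held a TTTGAA after the start, at 5 and 31, besides elements before it. A link between these positions and the response to CR was not tested. Of 58 other mitosis genes with a window, 41 held TTTGAA or TTTAAA, and of 41 DNA replication genes 11 did. These matches describe letters in a window and do not show that a factor binds there.

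The members were dim to middling on these arrays. Their mean log2 signals ran from 5.27 for Bub1 to 7.18 for Cdk1, and 15.1% of all genes were dimmer than Bub1 and 50.2% dimmer than Cdk1. Signals of different probe sets do not rank transcript levels, so each gene is compared only with itself across mice. Bub1 and Mki67 varied most of the members between mice of one group, with a standard deviation within groups of 0.34 and 0.33 (log2), larger than that of 92.5% and 92.3% of genes. Aurka and Birc5 varied little, 0.15 each, above 32.9% and 29.0% of genes. The array medians lay between 6.72 and 6.86. The adipocyte markers were bright on these arrays (median log2 signal of the list 12.8), and 17 arrays stood apart from the rest on epididymis markers or on the leading principal components. These were 4 CBA/J CR, 3 C57BL/6J CR, 3 DBA/2J CR, 6 DBA/2J control and 1 B6C3F1/J CR arrays. The epididymis marker mean reached 11.4 in them and lay between 4.62 and 5.94 elsewhere. Its group means were higher on CR in both CBA/J and C57BL/6J (6.41 on CR against 4.90 in CBA/J controls, 6.65 against 4.90 in C57BL/6J), and each count was run without these arrays, with values given where a call changed.

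Over the 7 strains, CR lowered 6 of the 9 genes and raised 1 (limma, adjusted p under 0.05 over all genes). Of all genes, 22.0% were lower and 21.9% higher by the same rule. The genes that fell included Ki-67, both measured cyclins and their kinase. The log2 signal of Ccna2 fell by 0.33 (SE 0.060, adjusted p = 1.14e-06), Mki67 fell by 0.31 (SE 0.062, adjusted p = 9.43e-06) and Ccnb2 fell by 0.29 (SE 0.053, adjusted p = 1.48e-06). Cdk1 fell by 0.25 (SE 0.035, adjusted p = 1.56e-09), and so did Plk1 (SE 0.042, adjusted p = 4.43e-07). Each of these 5 genes was lower on CR in all 7 strain means. Top2a fell by 0.14 (SE 0.053, adjusted p = 0.0209), but not past the threshold when CBA/J, B6C3F1/J or C57BL/6J was left out (adjusted p = 0.229, 0.0899 and 0.119) or without the arrays that stand apart (-0.12, adjusted p = 0.133).

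The remaining 3 genes were not called lower. Bub1, with a size close to that of Top2a, showed a difference of -0.14 (SE 0.063) that missed the threshold (adjusted p = 0.0681). When a mouse was left out, the cutoff was an unadjusted limma p of 0.0219, the largest p called with all mice. By this cutoff Bub1 passed in 8 of the 112 fits that left out a single mouse. These were CR mouse 5 of 129S1/SvImJ, control mouse 8 of B6C3F1/J, control mouse 5 of BALB/cJ, CR mouse 4 of C3H/HeJ, CR mouse 4 of C57BL/6J, CR mouse 7 and control mouse 8 of CBA/J and CR mouse 3 of DBA/2J. For Birc5 the difference was -0.03 (SE 0.028, adjusted p = 0.429). Aurka, the kinase that matures the spindle poles, rose by 0.09 (SE 0.029, adjusted p = 0.00428), with CR above control in 5 of 7 strain means. Its rise rested on 129S1/SvImJ and C3H/HeJ: without the former it was 0.07 (adjusted p = 0.0908) and without the latter 0.07 (adjusted p = 0.0595).

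**Figure D1:**
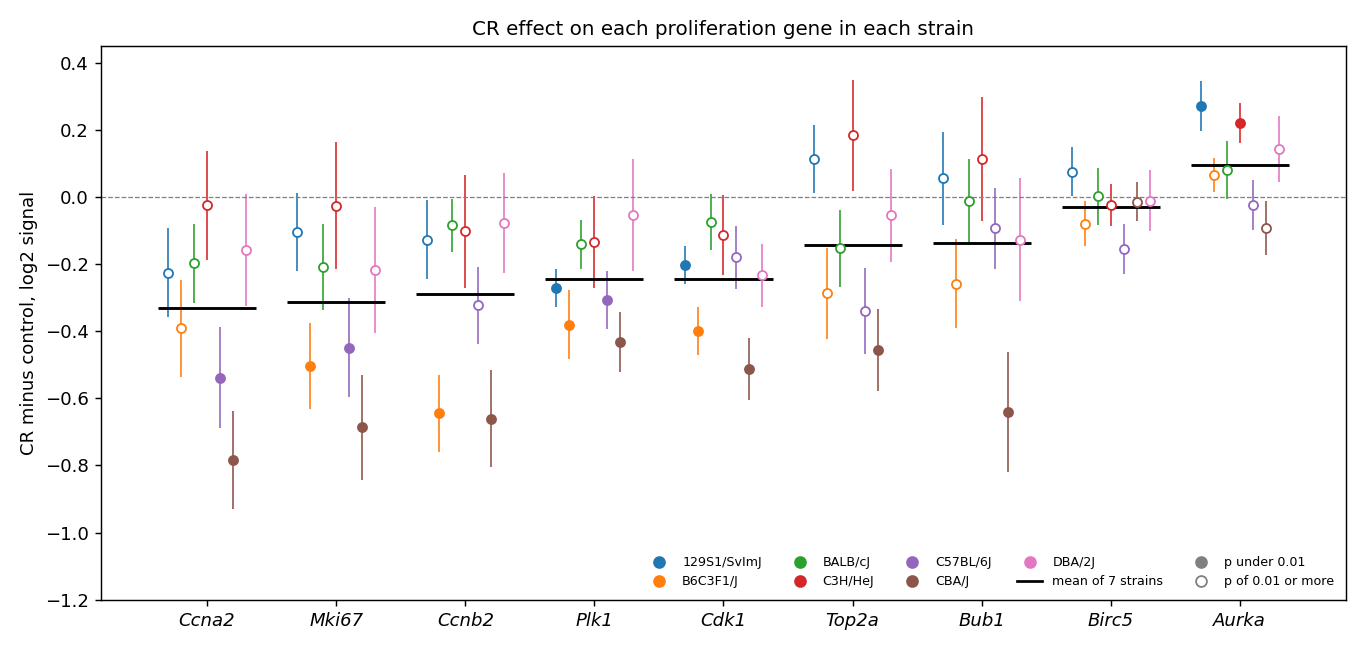
CR minus control in log2 signal (y axis) for each measured proliferation gene (x axis, ordered by the mean of the 7 strains, black lines) in each strain (coloured points, with the standard error of a limma fit to 16 mice); filled points have p under 0.01. The 5 genes that fell most lie below 0 in all strains, Birc5 stays close to 0 and Aurka lies above 0 in 5 strains.

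Strain by strain, CR was below control in 52 of the 63 pairs of gene and strain. At the unadjusted p under 0.01 that the study's methods use, 16 pairs were lower and 2 higher, or 17 and 2 at an adjusted p under 0.05. For comparison, 8.58% of all gene and strain pairs were lower and 8.9% higher at p under 0.01, and 8.42% and 8.84% at an adjusted p under 0.05. Most of the lower pairs came from 2 strains. In CBA/J 7 of 9 genes were lower (12.3% of all genes), in B6C3F1/J 4 (14.4%), in C57BL/6J 3 (7.82%) and in 129S1/SvImJ 2 (14.2%). No member was lower in C3H/HeJ, DBA/2J or BALB/cJ, where 7.44%, 2.88% and 0.958% of all genes were.

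CBA/J gave the widest response. Ccna2 lay at 7.15, 7.43 and 8.04 (lowest, median and highest log2 signal of 8 mice) on the control diet and at 6.07, 6.66 and 7.18 on CR. All but 1 CR mouse were below every control mouse. The difference was -0.78 (SE 0.15, limma within the strain, adjusted p = 0.000764). Mki67 ran from 6.96 through a median of 7.17 to 7.90 in the controls and from 5.96 through 6.57 to 7.29 on CR, a difference of -0.69 (SE 0.16, adjusted p = 0.00398). Ccnb2 (-0.66), Bub1 (-0.64), Cdk1 (-0.51), Top2a (-0.46) and Plk1 (-0.43) were lower as well. Only for Plk1 did the diets not overlap, with controls between 6.94 and 7.50 and CR mice between 6.41 and 6.93, and 5.69% of all genes were separated in this way and direction in CBA/J. Among the arrays that stand apart 4 were CBA/J CR, and without them 7 genes were still lower, with Ccna2 at -0.97 and Mki67 at -0.75.

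In B6C3F1/J the cyclin B2 and Cdk1 pair moved most clearly. Ccnb2 ran from 7.19 through 7.59 to 8.12 in the controls and from 6.83 through 6.92 to 7.07 on CR, so that no CR mouse reached the lowest control. Cdk1 ran from 7.23 through 7.52 to 7.65 and, on CR, from 6.80 through 7.07 to 7.22, again without overlap. Such separation downwards was seen for 5.69% of all genes in this strain. The differences were -0.65 for Ccnb2 (SE 0.11, adjusted p = 0.000216) and -0.40 for Cdk1 (SE 0.071, adjusted p = 0.000218). Mki67 (-0.50, adjusted p = 0.00474) and Plk1 (-0.38, adjusted p = 0.00737) were lower too, while Ccna2 (-0.39) had an unadjusted p of 0.015 and an adjusted p of 0.045 in limma.

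C57BL/6J showed lower Ccna2 (-0.54, SE 0.15), Mki67 (-0.45, SE 0.15) and Plk1 (-0.31, SE 0.086), with adjusted p = 0.020, 0.0464 and 0.0205. Its Mki67 values overlapped, from 6.27 to 7.23 with a median of 6.96 in the controls and from 6.07 to 7.14 with a median of 6.42 on CR. The count of 3 genes depended on single mice: it was 5 without CR mouse 4 or without control mouse 1, and 1 without the 3 CR arrays that stand apart. In 129S1/SvImJ the change was narrow. Plk1 lay between 7.06 and 7.40 in the controls and between 6.84 and 7.06 on CR, without overlap (4.31% of all genes), a difference of -0.27 (SE 0.056, adjusted p = 0.00122). Cdk1 was lower by -0.20 (adjusted p = 0.0117), and neither passed p under 0.01 in 1 model for all strains. Aurka was higher there, 6.72 ± 0.17 (SD, n = 8) in the controls against 6.99 ± 0.13 on CR (difference 0.27, SE 0.074, limma adjusted p = 0.00957, with 14.4% of all genes higher at p under 0.01).

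**Figure D2:**
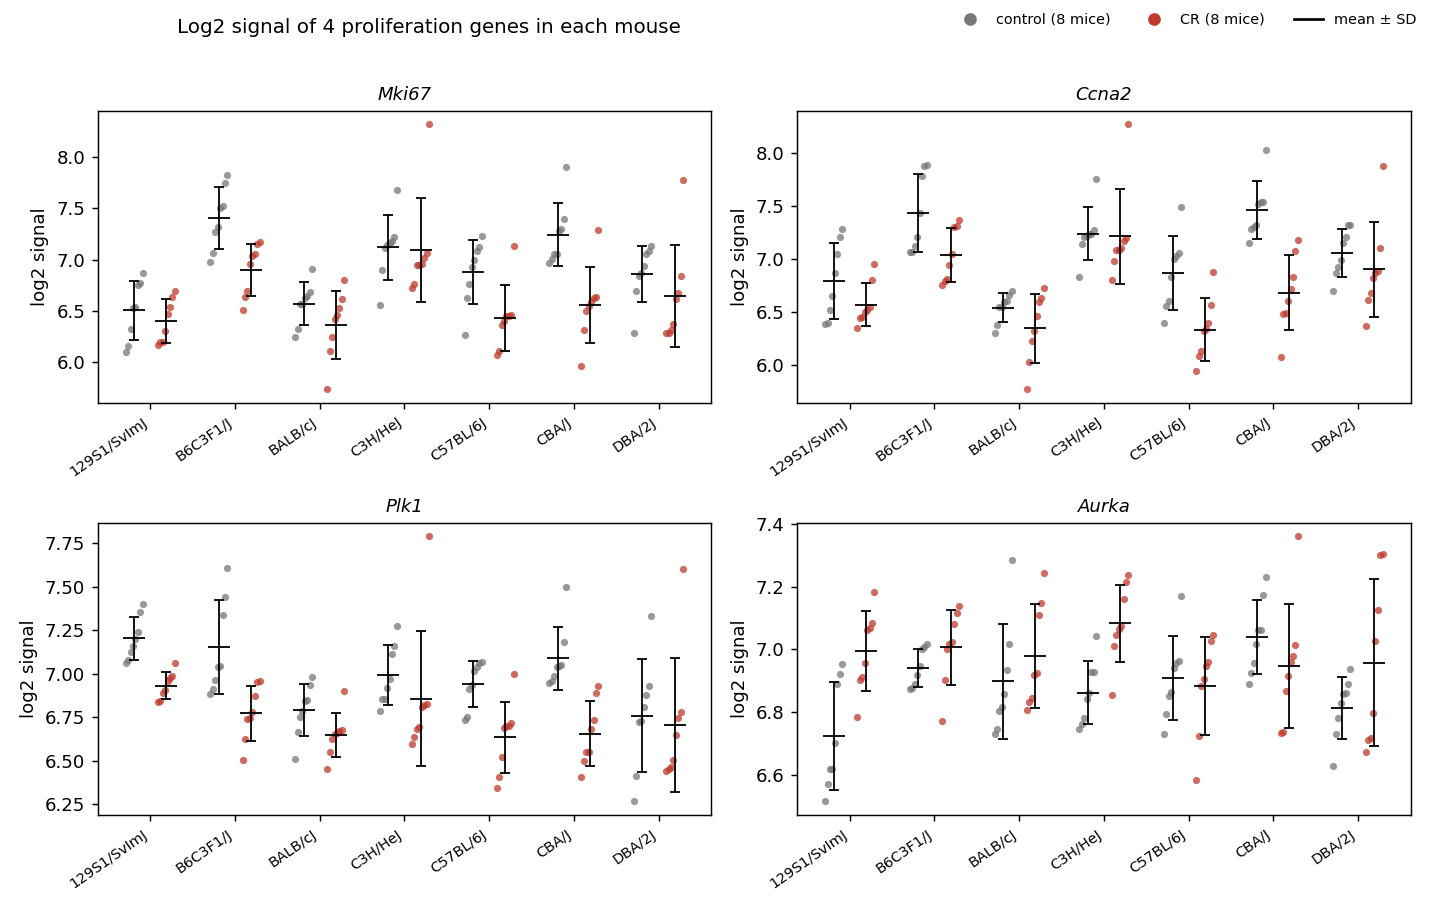
Log2 signal (y axis) of Mki67, Ccna2, Plk1 and Aurka in each of 112 mice, by strain (x axis) and diet, with the mean and standard deviation of 8 mice. A single high CR mouse stands above all others in C3H/HeJ and in DBA/2J for Mki67, Ccna2 and Plk1, and for Aurka the CR mice lie higher than most controls in 129S1/SvImJ and C3H/HeJ.

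In C3H/HeJ and DBA/2J single mice weighed heavily. C3H/HeJ CR mouse 4 had Mki67 at 8.32, where the next CR mouse was at 7.07, and it was the highest CR mouse of its strain for Top2a (7.31), Ccnb2 (8.11), Ccna2 (8.28), Cdk1 (8.01), Bub1 (6.68) and Plk1 (7.79) as well. Its macrophage marker mean was 0.73 above that of its group. No gene was lower in C3H/HeJ with this mouse, and without it Plk1 was (-0.27). Aurka was higher on CR in this strain (0.22, SE 0.059, adjusted p = 0.0162, 9.26% of all genes higher), at 6.85, 7.07 and 7.24 (lowest, median and highest) against 6.75, 6.85 and 7.04. DBA/2J CR mouse 3 had Mki67 at 7.78, next to 6.84 for the following mouse. Its T cell marker mean was 1.76 and its B cell marker mean 2.66 above those of its group, and its mean of the 24 macrophage markers was 0.31 above, in each case the highest of the group. Not every macrophage gene followed. Its Adgre1 (8.40), which is among the 24 markers, and its Mrc1 (8.82) were the lowest of the 8 DBA/2J CR mice. Its resident and lipid-associated macrophage means were 0.15 and 0.02 below those of the group. Without it 2 genes were lower in DBA/2J, Mki67 (-0.38) and Cdk1 (-0.27), and without DBA/2J control mouse 8 the count was 1. C3H/HeJ CR mouse 4, DBA/2J CR mouse 3 and CBA/J control mouse 2 were then left out together, a choice made after seeing their values. CBA/J control mouse 2 was high for Mki67 (7.90) and 0.64 above its group in macrophage markers. Without these 3 mice 19 of 63 pairs were lower. Over strains 7 genes were then lower, the added one being Bub1 (-0.16, adjusted p = 0.00797).

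BALB/cJ mice, fed more on both diets, had no member past the threshold, with differences from -0.21 for Mki67 (SE 0.13) and -0.20 for Ccna2 (SE 0.12) to 0.08 for Aurka (SE 0.087). Whether this strain differed from the others was tested directly. None of the 9 genes passed (limma, adjusted p under 0.05), against 0.722% of all genes with a lower and 2.52% with a higher CR effect in BALB/cJ. Cdk1 came nearest, 0.20 higher than the mean effect of the other strains (SE 0.099, unadjusted p = 0.0472, adjusted p = 0.364), and it was the 1 member with an unadjusted p under 0.05. Across all 7 strains, an F-test found a different CR effect for Ccnb2 (F = 3.56, adjusted p = 0.0227) and for no other member, with 19.0% of all genes past that threshold. Its differences ran from -0.66 in CBA/J and -0.65 in B6C3F1/J to -0.08 in DBA/2J and BALB/cJ. The genes Cdk1, Top2a, Aurka and Ccna2 had adjusted p between 0.0558 and 0.0752, and the count of members rose to 4 without the arrays that stand apart or with array weights.

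The control mice already differed between strains. Levels of 8 of 9 genes (all but Birc5) differed by F-test over the 7 control groups, as did 56.6% of all genes. B6C3F1/J and CBA/J controls were high, each with 6 genes above the mean of the other control strains (9.7% and 11.6% of all genes) and none below. BALB/cJ controls were low for 5 genes and 129S1/SvImJ controls for 7 (13.4% and 11.1% of all genes). In order of control means, Mki67 was at 7.40 ± 0.30 (SD, n = 8) in B6C3F1/J, 7.25 ± 0.31 in CBA/J, 7.12 ± 0.32 in C3H/HeJ, 6.88 ± 0.31 in C57BL/6J, 6.86 ± 0.28 in DBA/2J, 6.57 ± 0.21 in BALB/cJ and 6.51 ± 0.29 in 129S1/SvImJ. Neighbours in this order lay closer to each other than 1 standard deviation, except DBA/2J and BALB/cJ. On CR the order was another, with C3H/HeJ highest at 7.09 ± 0.51 and BALB/cJ lowest at 6.36 ± 0.33, and CBA/J fell from the second place to 6.56 ± 0.37. Plk1 ordered the strains otherwise, with 129S1/SvImJ controls highest (7.20 ± 0.12) and DBA/2J lowest (6.76 ± 0.32).

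Macrophage markers fell in the same mice. All 24 genes of a macrophage marker list were lower on CR over strains (median -0.76), among them Adgre1, a surface receptor widely used to stain mouse macrophages (-0.80), and the lysosomal Cd68 (-1.18). The markers of lipid-laden macrophages Itgax (-1.45) and Gpnmb (-1.77) fell most of those named, and the resident macrophage receptor Mrc1 by less (-0.53). By strain, the marker mean changed by -1.39 in CBA/J, -1.29 in B6C3F1/J, -0.76 in 129S1/SvImJ, -0.70 in C3H/HeJ, -0.64 in C57BL/6J, -0.40 in DBA/2J and -0.06 in BALB/cJ. The largest marker falls, in CBA/J and B6C3F1/J, were in the pair of strains with the most proliferation genes lower, while C3H/HeJ had a fall close to that of C57BL/6J and no gene lower. Over 7 strains, the CR effect correlated with the marker change at r = 0.885 for Cdk1 (rho 0.750), 0.881 for Ccnb2 (rho 0.857), 0.842 for Plk1 (rho 0.750), 0.668 for Mki67 (rho 0.464) and 0.152 for Birc5 (rho 0.214). Control means correlated likewise, at r = 0.975 for Ccnb2, 0.945 for Ccna2, 0.932 for Mki67 and 0.485 for Aurka. These are descriptions over 7 points that share arrays between both axes.

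The relation was then tested between mice of the same strain and diet. Each mouse was set against its group mean, and the slope of a gene on the macrophage marker mean was fitted by limma over all 112 mice. At an adjusted p under 0.05 the slope was positive for 8 of 9 genes, all but Aurka. By the same rule it was positive for 16.7% of all genes and negative for 16.4%. The slope was steepest for Mki67, 0.82 log2 units per log2 unit of the marker mean (SE 0.079, adjusted p = 1.17e-15). Ccna2 followed with 0.70 (SE 0.083), then Ccnb2 and Bub1 with 0.60 each, Top2a with 0.59, Plk1 with 0.45 and Cdk1 with 0.38, all with adjusted p of 4.73e-07 or less. Birc5 had a slope of 0.13 (adjusted p = 0.0317) that did not pass without the 3 single mice named above (0.10, adjusted p = 0.126), and Aurka one of 0.09 (adjusted p = 0.194).

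As a correlation, Mki67 and the marker mean gave r = 0.721 and rho = 0.679 over 112 mice (permutation within groups, two-sided p = 1e-05 for both, the smallest that 100000 resamples can give). Without the 2 mice farthest in the marker mean r was 0.713, and within the 14 groups taken singly it was positive in all, from 0.373 to 0.932. The relation for Aurka was weaker, with r = 0.165 (permutation p = 0.070) and rho = 0.104 (p = 0.29), and for Birc5 r = 0.261 (permutation p = 0.0051) and rho = 0.243 (p = 0.013). In all 9 such relations were computed, and the adjusted p over all genes are those of the slopes.

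**Figure D3:**
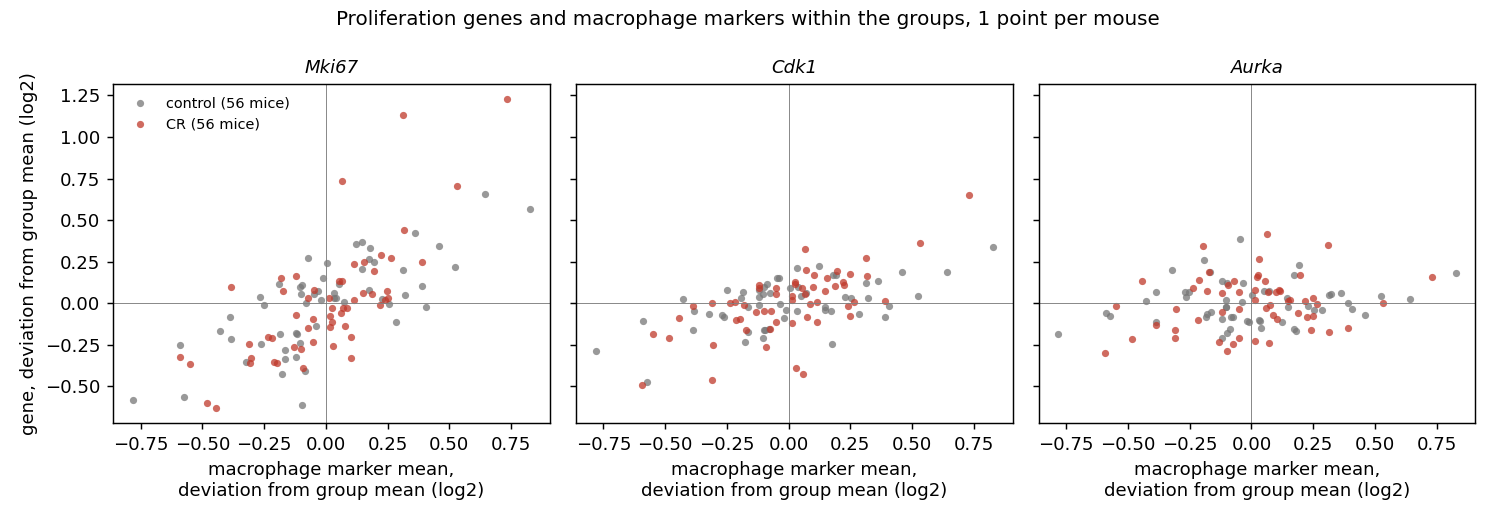
Deviation of Mki67, Cdk1 and Aurka from the mean of the mouse's own strain and diet group (y axis, log2) against the same deviation of the mean of 24 macrophage markers (x axis, log2), 1 point per mouse. Mki67 climbs with the markers (r = 0.721), Cdk1 less steeply (r = 0.60), and Aurka shows little slope (r = 0.165).

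For the mean of the measured genes, markers of other cell types gave lower correlations, and the differences between these correlations were not tested. The mean of the measured proliferation genes correlated over the 112 deviations with the macrophage marker mean at r = 0.693, with lipid-associated macrophage markers at 0.588, with resident macrophage markers at 0.474, with T cell markers at 0.466 (rho 0.30) and with adipose progenitor and fibroblast markers at 0.407. Neutrophil markers gave 0.309, B cell markers 0.225, adipocyte markers 0.058, endothelial markers -0.03, epididymis markers -0.13 and testis germ cell markers -0.21. The values near 0 depended on the arrays that stand apart. Without these arrays adipocyte markers gave -0.19, endothelial markers -0.26, epididymis markers -0.04 and neutrophil markers 0.23, while macrophage markers gave 0.718. Over all 112 mice, Aurka and Birc5 taken singly differed from the order first given. Aurka had r = 0.621 with neutrophil, 0.406 with T cell and 0.398 with red cell markers, against 0.165 with macrophage markers. Birc5 had 0.492 with T cell and 0.485 with neutrophil markers, against 0.261 with macrophage markers. Every other measured gene had its highest r with the macrophage markers. The neutrophil, T cell and red cell lists were dim, with median log2 signals of 5.85, 6.45 and 6.41. That of the macrophage list was 9.09 and that of all genes 7.17. DBA/2J CR mouse 3 was among the mice for these r, with T cell and neutrophil means 1.76 and 0.37 above those of its group. The cell type lists are not independent of each other, since the progenitor mean itself correlated with the macrophage mean at 0.698. In the fit over strains 11 of 12 lipid-associated macrophage markers were lower on CR, as were 6 of 8 progenitor, 5 of 7 mast cell, 3 of 10 endothelial, 3 of 10 adipocyte, 1 of 8 mesothelium and 1 of 10 T cell markers, and no B cell, neutrophil, red cell, epididymis or testis germ cell marker was. The shares of all genes were 22.0% lower and 21.9% higher, which the endothelial, adipocyte, mesothelium and T cell counts did not clearly exceed. Higher on CR were 4 of 10 testis germ cell, 3 of 10 epididymis, 2 of 10 adipocyte, 1 of 7 mast cell, 1 of 10 resident macrophage and 1 of 8 mesothelium markers. The part of cells other than macrophages in the result was not tested.

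The macrophage marker mean was then put into the fit. Comparing CR with control at an equal marker mean, none of the 9 genes was lower and 4 were higher, whereas 11.4% of all genes were lower and 16.8% higher. No member was lower at an unadjusted p under 0.05 either. Top2a was higher by 0.30 (SE 0.070, adjusted p = 0.000509), Mki67 by 0.30 (SE 0.073, adjusted p = 0.000977), Bub1 by 0.31 (SE 0.091, adjusted p = 0.00642) and Aurka by 0.16 (SE 0.048, adjusted p = 0.00817). Cdk1 was at 0.03 (SE 0.047) and Plk1 at 0.09 (SE 0.058). Without the 3 single mice named above 3 were higher, Mki67 by 0.17, Top2a by 0.19 and Aurka by 0.13, and Bub1 was at 0.16 (adjusted p = 0.154). With quantile normalization 7 were higher, the added ones being Ccna2, Ccnb2 and Birc5. The count also depended on the choice of markers. With the resident macrophage markers in their place, which fell less on CR (6 of 10 lower), Ccnb2, Ccna2, Cdk1 and Plk1 were still lower, by values from -0.16 to -0.19, Mki67 was at -0.13 and only Aurka was higher. The marker mean is itself changed by CR, so these values describe a fit and not mice held at equal numbers of macrophages.

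**Figure D4:**
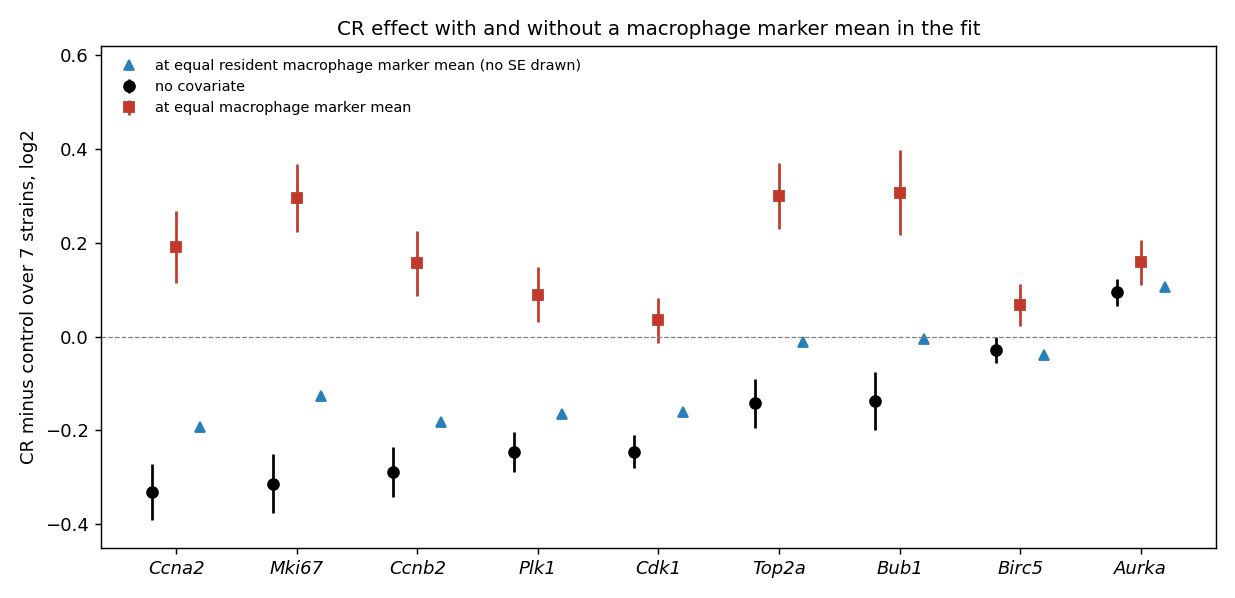
CR minus control over 7 strains in log2 (y axis) for each gene (x axis), without a covariate (circles), at an equal mean of 24 macrophage markers (squares) and at an equal mean of 10 resident macrophage markers (triangles); bars on circles and squares are standard errors. Circles lie below 0 for all genes but Aurka, squares lie above 0 for all 9, and triangles lie between them for all but Birc5.

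The members also moved with one another. Over the 112 deviations from group means, Mki67 and Ccna2 correlated at r = 0.892, and Mki67 and Top2a at 0.860. The 21 pairs without Aurka and Birc5 had a median r of 0.721, from 0.551 to 0.892. The 15 pairs with either of them had a median of 0.318. Outside the cell cycle lists, the genes most like the mean of the members were H2ac15 (r = 0.852), Lpxn (0.791), Selplg (0.789), Epsti1 (0.774), Ncf4 (0.772), Nckap1l (0.768), Cyth4 (0.764), Myo1g (0.763), Btk (0.760) and Irf5 (0.756), over 112 mice. H2ac15 encodes an H2A histone, whose near-identical copies its probe set may not tell apart. The others include genes of blood cells: Selplg is the selectin ligand of leukocytes, Ncf4 a subunit of their oxidase, Nckap1l a regulator of their actin, and Btk a kinase of B cells and myeloid cells. Their signals fell by 0.25 to 0.91 on CR, while that of H2ac15 differed by -0.08 (adjusted p = 0.210). Of the 50 genes most like the member mean, 12 were other genes of the cell cycle lists, of which 153 of the 19929 other genes are members.

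The other cell cycle lists held genes called in both directions, and their counts are to be read against the 22.0% of all genes lower and 21.9% higher. Of 72 other mitosis genes 24 were lower (33.3%) and 10 higher (13.9%) on CR, with a median of -0.05 (all genes 0.01). This list was dimmer than the members (median log2 signal 6.05 against 6.87), and differences of dim probe sets are compressed. Anln, which builds the cleavage furrow, fell by 0.42 (SE 0.048), and Cenpa, the centromere histone, fell by 0.25 (SE 0.034). Plk4, which starts centriole duplication, rose by 0.29 (SE 0.036) and Cks1b, a Cdk-binding subunit, by 0.23 (SE 0.035). The count of lower genes was 10 without CBA/J, 12 without B6C3F1/J and 12 without the arrays that stand apart. Past the threshold, 48 of 72 genes of this list had a positive slope on the macrophage marker mean and none a negative one. Of all genes 16.7% had a positive slope by this rule.

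Of 50 DNA replication genes 5 were lower (10%) and 17 higher (34.0%), with a median of 0.02, and the higher ones numbered 11 without 129S1/SvImJ and 11 without C3H/HeJ. The sliding clamp Pcna fell by 0.23 (SE 0.038) and the helicase subunit Mcm6 fell by 0.20 (SE 0.040), whereas Cdc45, which activates that helicase, rose by 0.21 (SE 0.023) and the recombination gene Brca2 by 0.25 (SE 0.028). Of 15 cyclins, kinases and E2F factors of the G1 phase, 6 were lower (40.0%) and 4 higher (26.7%). Myc, a driver of growth, fell by 0.43 and the repressor E2f7 by 0.20, and the G1/S cyclin Ccne1 rose by 0.48 and cyclin D2 (Ccnd2) by 0.18. Among 16 inhibitors and pocket proteins 5 were lower (31.3%) and 4 higher (25%), shares near those of all genes. The widest change of all these lists was in Cdkn2c, the p18 inhibitor of G1 kinases, which rose by 1.08 (SE 0.059, adjusted p = 3.24e-30) and was higher on CR in all 7 strain means. Its slope on the macrophage markers was -0.03 (adjusted p = 0.846), and at an equal marker mean it was still higher by 1.06. Ccng1 was higher by 0.09, and the antiproliferative Btg1 (-0.48) and the inhibitor Cdkn1c (-0.19) were lower.

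**Figure D5:**
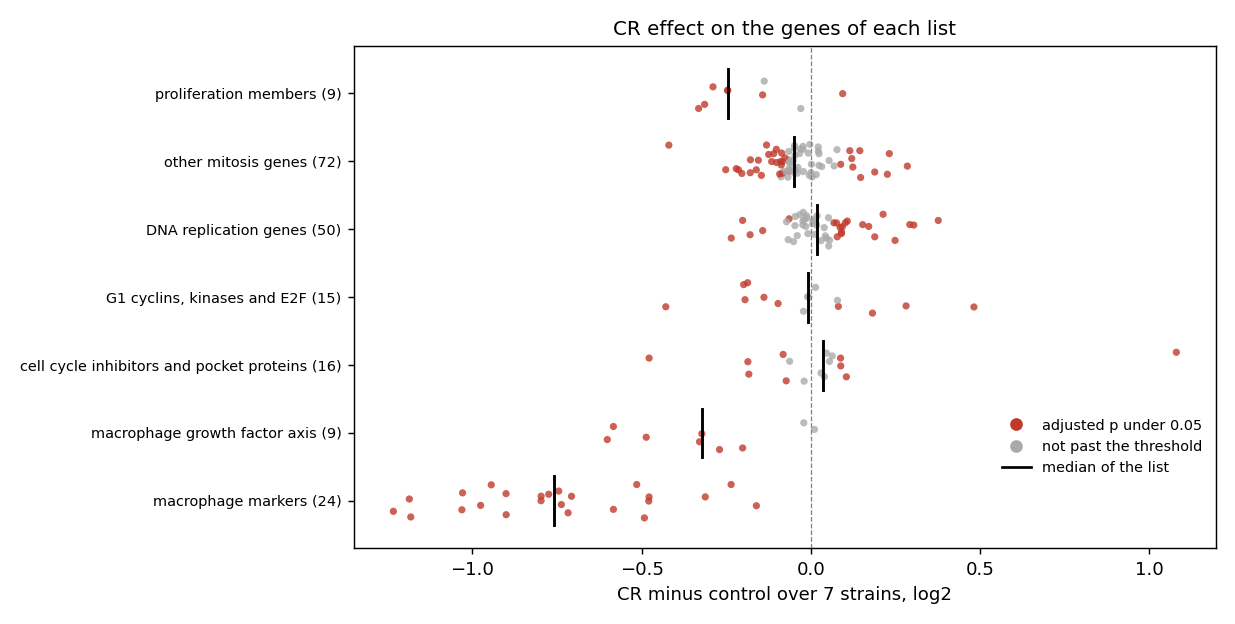
CR minus control over 7 strains in log2 (x axis) for every measured gene of 7 lists (y axis, with the number of genes); red points passed an adjusted p under 0.05 and black bars are medians. The members (median -0.25) lie left of the other mitosis genes (-0.05) and the DNA replication genes (0.02), Cdkn2c is the single point beyond 1, and all 24 macrophage markers lie below 0. The other mitosis genes were dimmer than the members (median log2 signal 6.05 against 6.87).

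A further list, called the macrophage growth factor axis, holds growth factors and cytokine receptors of macrophages, the factor Maf, and also Ccl2 and its receptor Ccr2, which recruit monocytes. Of its 9 measured genes 7 were lower and none higher (median -0.32), with Ccl2 (-0.49) and Ccr2 (-0.60) among the 7. The shares of all genes were 22.0% lower and 21.9% higher. Csf1r, the receptor for the macrophage growth factor CSF1, fell by 0.58 (SE 0.051), and the transcription factor Maf, which holds macrophages out of the cell cycle, fell by 0.33 (SE 0.035). Csf1r is also 1 of the 24 macrophage markers. At an equal marker mean Csf1r differed by 0.06 (adjusted p = 0.177) and Maf by 0.01 (adjusted p = 0.900).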

How the data were processed

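The authors deposited log2 signals per probe set from Mouse Gene 1.0 ST arrays, summarised per gene by the RMA-Sketch method of Expression Console from Affymetrix (the version and the arrays normalized together are not given in the sources used here). This brings arrays to a common distribution and compresses differences of dim probe sets. Groups came from the labels, 8 mice each, 14 groups in all. Of 35556 probe sets, 21789 carried 1 symbol, 1621 several and 12146 none listed, giving 19938 genes. The brightest probe set per gene was used, over all arrays or, within strains, over 16 arrays.

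limma 3.58.1 (R 4.3.3, statmod 1.5.0) was fitted with a mean for each of the 14 groups. It tested the mean CR effect, its difference between strains (F-test), BALB/cJ against the others, control levels, the slope on the macrophage marker mean, and the CR effect with that mean as covariate. Benjamini-Hochberg adjustment covered all genes, with a threshold of 0.05, and no filter on dim genes was used. For single strains the limma fit used that strain's 16 arrays, at the p under 0.01 of the methods and at an adjusted p. Tests were checked on simulated data. Correlations used deviations from group means (pandas 2.3.3, scipy 1.17.1), and figures matplotlib 3.10.9. The number of arrays limits precision.

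The members and 20 gene lists were chosen with earlier results of these data known. Named genes are all members, the 2 smallest p in each direction of every other cell cycle list and of the growth factor axis, 5 macrophage markers, and the 10 genes outside the cell cycle lists most correlated with the member mean. Settings varied were normalization, filter, probe set rule, variance model, weights, block, marker list, test, strains and single mice.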

Additional observations from a re-analysis of the deposited data

Results flagged for a closer look

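Of 126 groups of 8 mice, 1 for each measured gene, strain and diet, 25 held a mouse set apart from the rest by Dixon's test at the 95% level, where chance gives about 1 group in 20. The groups are not independent, because the same mice serve for every gene and the genes moved together. The 25 are therefore not separate events to set against that share. C3H/HeJ CR mouse 4 was the high mouse for 7 genes, with log2 signals of 8.32 for Mki67, 7.31 for Top2a, 8.11 for Ccnb2, 8.28 for Ccna2, 8.01 for Cdk1, 6.68 for Bub1 and 7.79 for Plk1. DBA/2J CR mouse 3 was high for Mki67 (7.78), Top2a (6.65), Ccnb2 (7.57) and Plk1 (7.60). CBA/J control mouse 2 was high for Mki67 (7.90), Ccnb2 (8.18), Ccna2 (8.04) and Plk1 (7.50), and also for the macrophage marker mean (10.3). C57BL/6J CR mouse 4 was high for Mki67 (7.14) and Ccnb2 (7.29), and CBA/J CR mouse 7 for Top2a (6.38) and Aurka (7.36). Single flags fell on C3H/HeJ control mouse 3 (Ccnb2, high, 7.82), BALB/cJ CR mouse 3 (Cdk1, low, 6.60), DBA/2J control mouse 8 (Cdk1, low, 7.12), B6C3F1/J CR mouse 8 (Bub1, low, 4.87), BALB/cJ control mouse 5 (Bub1, low, 4.30) and DBA/2J control mouse 4 (Bub1, high, 5.89).

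The CR effect on Ccnb2 differed between strains by the interaction F-test of limma (F = 3.56, adjusted p = 0.0227).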

How the results depend on the processing

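The counts of members lower over strains stayed at 6 or 7 when single mice were left out (the higher count stayed at 1). Within strains, leaving out single mice gave 2 to 5 lower genes in C57BL/6J, 0 to 2 in DBA/2J, 0 to 1 in C3H/HeJ, 4 to 5 in B6C3F1/J, 7 in CBA/J, 2 in 129S1/SvImJ and 0 in BALB/cJ. The number of members higher over strains was 0 without 129S1/SvImJ and 0 without C3H/HeJ. Among other mitosis genes the lower ones numbered 12 without the arrays that stand apart, 12 without B6C3F1/J, 10 without CBA/J and 6 without dim genes, a filter that left 18 of the 72, with 5 higher. DNA replication genes higher on CR numbered 8 without dim genes, 11 without 129S1/SvImJ and 11 without C3H/HeJ. The filter on dim genes kept 6 members, of which 5 had a positive slope past the threshold and 3 a different CR effect between strains. The latter count was 4 with array weights and 4 without the arrays that stand apart. At an equal marker mean 7 members were higher with quantile normalization. With resident macrophage markers 4 were lower and 1 higher, the slope of Birc5 was -0.039, and the CR effects turned to -0.13 for Mki67, -0.012 for Top2a, -0.18 for Ccnb2, -0.19 for Ccna2, -0.16 for Cdk1, -0.00526 for Bub1 and -0.17 for Plk1. The causes were not tested. The mice are numbered 1 to 8 in each group. Over all strains, mice of the same number did not as a rule deviate together (median r 0.026). Of 56 pairs of control and CR mice of a strain, 18 had r over 0.1. The values differed by strain, with r from -0.08 to 0.45 in C3H/HeJ, from -0.21 to 0.55 in BALB/cJ and from -0.36 to 0.38 in DBA/2J. With the replicate number as a block all the same, 4 members differed in their CR effect between strains, and 19 of 63 pairs were lower within strains against 16 without it.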
